A study of Mus musculus with 12 samples.

Results

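A stretch of mouse chromosome 5 that holds Abhd1 and Slc35f6 was described in midbrain astrocytes of mice with 2, 1 or no working copies of Cd38, the gene of an NAD-consuming ectoenzyme on the same chromosome. The 10 genes Slc35f6, Cenpa, Dpysl5, Mapre3, Agbl5, Abhd1, Preb, Slc5a6, Atraid and Cad were matched by symbol among the 20614 genes of the expression table. Abhd1 and Slc35f6 were chosen by their measured differences between genotypes in these libraries, so their values are given as a description, without a test. The other 8 genes were listed for their position near Abhd1 and Slc35f6. They are not all the genes of that stretch, and they were chosen with earlier results of these data known. Their q-values are to be read with that limit.

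RNA was sequenced from 12 libraries of male mice aged 12 to 14 months, 1 library per sample: 3 of Cd38+/+ mice, 3 of Cd38+/- mice and 6 of Cd38-/- mice. The Cd38 allele is a whole-body disruption carried by the strain B6.129P2-Cd38tm1Ln/J, so every cell type of the mouse lacks the working copy, and the mice were bred on C57BL/6J. The strain name gives an origin of the allele outside C57BL/6J. Controls were matched by litter, by peers or by both, so the 3 Cd38+/+ samples need not all be littermates of the mutants. Astrocytes were taken with anti-ACSA-2 beads from dissociated striatum, thalamus and substantia nigra, after beads had removed endothelial cells, myelin and CD11b+ cells. The strain origin of this stretch of chromosome 5 in the mice was not measured here. The labels do not say whether the samples of a genotype came from separate preparations beyond being separate samples, and the p- and q-values cover only the spread between them.

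Mice in which a gene was targeted in embryonic stem cells of another strain carry, beside the targeted allele, a flanking stretch of the donor strain's chromosome, which tends to shorten over generations of backcrossing. Genes in such a stretch can differ in sequence from those of the host strain, and a fixed difference of this kind goes with the number of copies of the targeted allele. The genes described here do unrelated work in the cell: an alpha/beta hydrolase relative, a membrane protein of the solute carrier family SLC35, a vesicle coat factor, a centromere histone, proteins of microtubules and their ends, a vitamin transporter and the enzyme that opens pyrimidine synthesis.

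Expression was measured in TPM, a transcript's share of the library, scaled by transcript length and by the library's total. Read numbers cannot be had from it. A change is given as the difference of log2(TPM + 1) with its standard error (SE) from limma, and q is the Storey q-value over all genes tested, that is, genes whose TPM averaged over 5 in either genotype compared. A gene was called at a q under 0.05 with at least a 1.2-fold change. The comparisons of Cd38+/- and of Cd38-/- with Cd38+/+ mice share the same 3 Cd38+/+ libraries, so their changes are given side by side.

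The Cd38+/+ libraries stood apart from the others in how many genes they detected, 13160 to 13516 genes above 0 TPM, against 16160 to 16327 in the Cd38+/- and 15920 to 17906 in the Cd38-/- libraries. The median log2 fold change of all genes tested was 0.18 for Cd38+/- against Cd38+/+, 0.15 for Cd38-/- against Cd38+/+ and -0.02 for Cd38-/- against Cd38+/-. The 8 astrocyte markers summed to 9780 to 14500 TPM in Cd38+/+, 14700 to 16500 in Cd38+/- and 10900 to 14400 in Cd38-/- libraries. Markers of other cells were present too: the 6 oligodendrocyte markers summed to 1290 to 7180, 3090 to 11000 and 3170 to 17800 TPM, with Mog listed at 0 in all Cd38+/+ libraries, and the 5 ependymal markers to 2520 to 4770, 2580 to 3020 and 3240 to 5080 TPM. Microglia markers, 6 genes, summed to 6.23 to 17.9, 23.6 to 26.5 and 18.5 to 40.8 TPM, with Tmem119 and Cx3cr1 at 0 in all Cd38+/+ libraries, and the 5 endothelial markers to 411 to 1920, 338 to 678 and 366 to 1250 TPM. In such bulk samples, fewer cells of a type and less RNA per cell cannot be told apart. The part of these differences in the results was not tested. Cd38 itself was at 105, 120 and 149 TPM in Cd38+/+, at 90.4, 90.7 and 90.8 in Cd38+/- and at 8.54 to 21.9 TPM in Cd38-/- libraries, in the order the labels give.

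On the GRCm38 build the 10 genes span 431 kb of chromosome 5, and all lie between 12.81 and 13.22 Mb before the start of Cd38. Slc35f6 (ENSMUSG00000029175, chr5:30647933-30659729, plus strand) is the farthest from Cd38, and Abhd1 (ENSMUSG00000006638, chr5:30950066-30955091, plus strand) starts 290 kb after it ends. Between them lie Cenpa (chr5:30666777-30674830), Dpysl5 (chr5:30711564-30799375), Mapre3 (chr5:30814641-30866106) and Agbl5 (chr5:30888694-30906965), all on the plus strand. Preb (chr5:30950853-30960361, minus strand) overlaps Abhd1. Slc5a6 (chr5:31036036-31048924, minus strand), Atraid (chr5:31048312-31054623, plus strand) and Cad (chr5:31054780-31078479, plus strand) follow.

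Abhd1 and Preb are read from opposite strands of the same DNA. Of the 1758 exonic bases of Abhd1 in the GENCODE annotation, 1575 (89.6%) also lie in exons of Preb, and they make up 21.8% of Preb's exonic bases. The library kit does not mark strand, so a read from these bases could come from either gene, and the TPM of Abhd1 and Preb are uncertain to that extent. The first exon of Abhd1, 183 bases, lies outside the exons of Preb and is shown for that reason. It is exonic sequence of the GENCODE transcripts at chr5:30950066-30950248 on the plus strand, with CG dinucleotides in capitals.
Abhd1 first exon: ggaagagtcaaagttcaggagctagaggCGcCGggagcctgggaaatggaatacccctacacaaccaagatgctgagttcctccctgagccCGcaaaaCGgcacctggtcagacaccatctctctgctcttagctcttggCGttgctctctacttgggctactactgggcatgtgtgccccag

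GENCODE lists Abhd1 as a processed transcript with 0 coding bases, and RefSeq lists it as a transcribed pseudogene in this reference, while the other 9 genes are protein coding. Of its 7 annotated transcripts, 1 has 9 exons and 1352 bases, and another has 10 exons and 1309 bases and skips a single base at chr5:30954155. That base is in capitals in the following stretch of the plus strand at chr5:30954141-30954169, shown because it is where the annotation of the reference strain departs from a plain exon.
Abhd1 skipped base: tcgcaggactgaccAttgtctgcatgttg

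The Slc35f6 promoter is shown because Slc35f6, alone of the 10 genes, had Cd38-/- libraries apart from those of both other genotypes. It was read from the RefSeq promoter table (GRCm38.p6), which had entries for 9 of the 10 genes. The 300 bases at chr5:30647689-30647988, plus strand, run from 250 bases before the transcript start to 50 after it, and the capitals mark, in order, a GC box (GGGCGG), the letters TCATGTGA bound by MiT-family factors and the ETS core CCGGAAGT.
Slc35f6 promoter: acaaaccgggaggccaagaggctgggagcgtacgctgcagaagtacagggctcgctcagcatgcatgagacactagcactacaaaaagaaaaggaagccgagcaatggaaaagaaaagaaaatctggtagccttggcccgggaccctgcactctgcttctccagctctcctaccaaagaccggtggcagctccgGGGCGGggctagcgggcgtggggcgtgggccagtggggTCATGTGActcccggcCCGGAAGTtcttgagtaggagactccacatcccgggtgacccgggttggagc

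Searched on both strands, GGGCGG was in 35.7%, CCGGAAGT in 3.89% and TCATGTGA in 0.986% of the 32851 promoter windows in the table. The matches do not overlap each other, and the motifs were picked after the sequence had been seen. The window holds 16 CG dinucleotides, and 33.0% of all windows hold at least as many. GGGCGG also occurred in promoters of Cenpa, Dpysl5, Mapre3, Agbl5, Slc5a6, Atraid and Cad, and the other motifs in none of them. These matches describe the letters and were not tested as binding sites.

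Slc35f6 was lower in Cd38-/- mice than in both other genotypes. It was at 98.6, 98.0 and 108 TPM in the 3 Cd38+/+ libraries and at 87.4, 118 and 101 TPM in the 3 Cd38+/- libraries. In the 6 Cd38-/- libraries it ranged from 33.5 to 63.4 TPM with a median of 46.3 TPM. Every Cd38-/- library was below every other library, while the Cd38+/+ and Cd38+/- libraries were intermingled. The means were 102 ± 5.84 TPM (SD, n = 3), 102 ± 15.5 TPM (n = 3) and 48.8 ± 11.5 TPM (n = 6), so that the Cd38-/- level was 48.0% of the Cd38+/+ and 47.8% of the Cd38+/- level. The log2 fold change was -1.07 (SE 0.20) for Cd38-/- against Cd38+/+, -1.07 (SE 0.19) for Cd38-/- against Cd38+/- and 0.00 (SE 0.18) for Cd38+/- against Cd38+/+. On the log2 scale the Cd38+/- libraries stood 0% of the way from the Cd38+/+ to the Cd38-/- level.

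Abhd1 was higher in both mutant genotypes. It was at 7.22, 4.93 and 20.8 TPM in Cd38+/+ libraries and at 50.3, 88.6 and 63.4 TPM in Cd38+/- libraries. In Cd38-/- libraries it ranged from 82.3 to 139 TPM with a median of 102 TPM. All 9 mutant libraries were above all 3 Cd38+/+ libraries, and the ranges of the mutant genotypes overlapped. The means were 11.0 ± 8.60 TPM (SD, n = 3), 67.4 ± 19.5 TPM (n = 3) and 103 ± 20.0 TPM (n = 6). The log2 fold change was 2.71 (SE 0.48) for Cd38+/- and 3.33 (SE 0.33) for Cd38-/- against Cd38+/+, and 0.62 (SE 0.19) for Cd38-/- against Cd38+/-. The Cd38+/- libraries stood 81% of the way from the Cd38+/+ to the Cd38-/- level on the log2 scale. Among all genes tested in each comparison, Abhd1 had the 22nd highest log2 fold change in Cd38+/- and the 3rd highest in Cd38-/- mice against Cd38+/+. Abhd1 was chosen on such differences, so these ranks restate that choice and nothing was read from them.

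**Figure D1:**
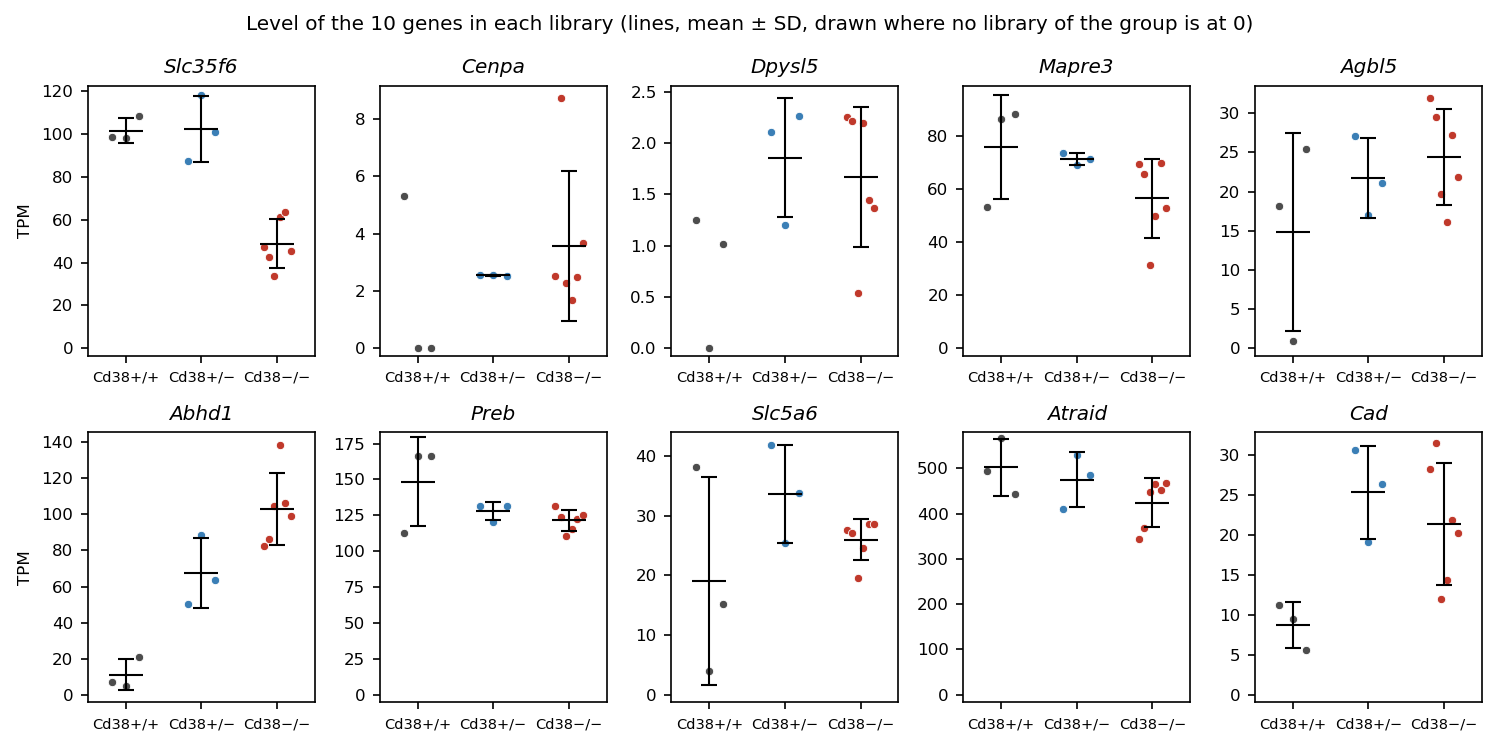
Level in TPM (vertical axis) of the 10 genes, 1 panel each in chromosomal order, in every Cd38+/+ (grey), Cd38+/- (blue) and Cd38-/- (red) library; points are libraries and lines the mean ± SD, drawn where no library of the group is at 0. Slc35f6 sits at 33.5 to 63.4 TPM in Cd38-/- libraries below all others, Abhd1 at 4.93 to 20.8 TPM in Cd38+/+ libraries below all others, and Cad at 5.51 to 11.2 TPM in Cd38+/+ libraries below all others.

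The targeted gene and the pair moved in different steps. Cd38 fell from Cd38+/+ to Cd38+/- and again to Cd38-/- libraries. Slc35f6 differed only at the second of these steps in the ranges of its libraries. Abhd1 differed without overlap only at the first, though its mean also rose at the second, from 67.4 to 103 TPM. Within the 3 Cd38+/- libraries Cd38 lay within 90.4 to 90.8 TPM, while Slc35f6 ranged from 87.4 to 118 TPM and Abhd1 from 50.3 to 88.6 TPM. Over all 12 libraries, which fall into clusters by genotype, Cd38 was the gene with the highest Pearson r to Slc35f6 on log2(TPM + 1), 0.92, among 11844 genes, and r between Abhd1 and Cd38 was -0.74. Slc35f6 and Abhd1 were chosen on their differences between genotypes, and Cd38 differs between them by design. Nothing was therefore read from this rank or these coefficients.

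**Figure D2:**
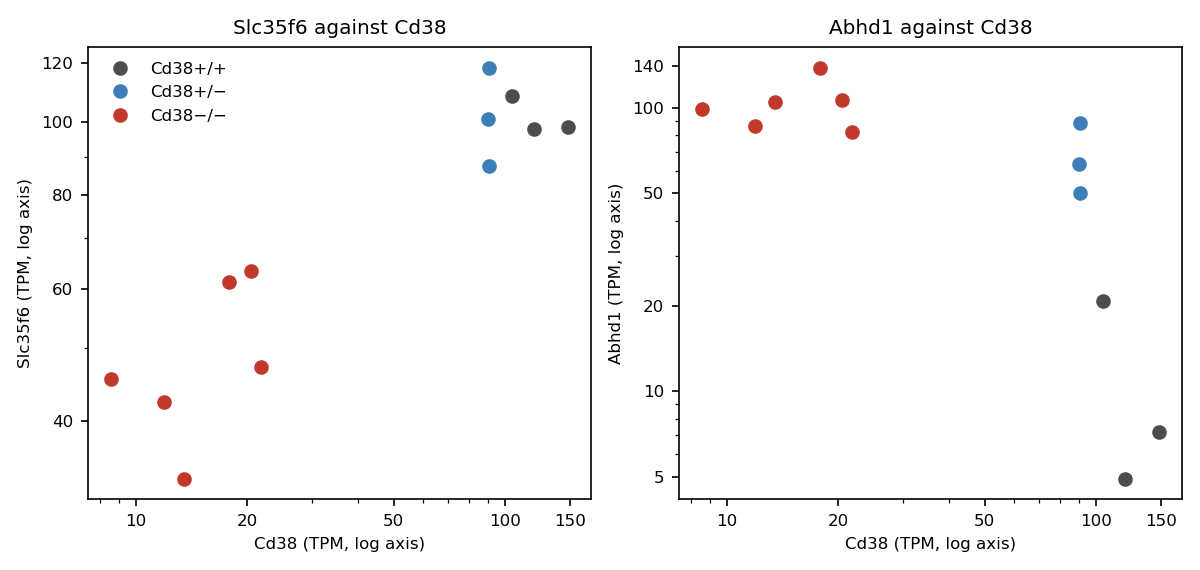
TPM of Slc35f6 (left) and Abhd1 (right) against TPM of Cd38 in the same library, all axes logarithmic, with 1 point for each of the 12 libraries coloured by genotype. Libraries fall into clusters by genotype: Cd38+/- libraries sit at the Slc35f6 level of Cd38+/+ libraries, and nearer the Abhd1 level of Cd38-/- than that of Cd38+/+ libraries on the log axis.

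The genes most like Slc35f6 across the 12 libraries after Cd38 were Angptl4 (r = 0.90), Plod1 (0.88), Sgip1 (0.88) and Sox1 (0.88), and the most opposed were 1110032A03Rik (-0.94), Tmem216 (-0.91), Crygn (-0.91), Cetn2 (-0.90) and Capsl (-0.90). Crygn, a crystallin gene, also lies on chromosome 5, from chr5:24751003. The genes most like Abhd1 were Zkscan5 (r = 0.97), Psmd14 (0.96), Sdhaf2 (0.95), Sass6 (0.95) and Hccs (0.94), and among the most opposed were Elp4 (-0.95), Slc31a2 (-0.94), Atpsckmt (-0.94) and Pvr (-0.93). Zkscan5, a zinc finger gene, lies on chromosome 5 too, beyond Cd38. All these libraries share the split in gene detection between Cd38+/+ and the rest, and the coefficients are descriptions over 12 points.

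Preb, known as Sec12, is the exchange factor that loads Sar1 with GTP to start the COPII coat at the endoplasmic reticulum. It was at 113, 166 and 166 TPM in Cd38+/+, at 132, 121 and 131 TPM in Cd38+/- and at 110 to 131 TPM with a median of 123 TPM in Cd38-/- libraries. The groups overlapped in every comparison. Its log2 fold change was -0.19 (SE 0.19, q = 0.423) for Cd38+/- and -0.27 (SE 0.14, q = 0.160) for Cd38-/- against Cd38+/+, and -0.07 (SE 0.09, q = 0.573) between the mutant genotypes. Preb was called in the comparison of Cd38-/- with Cd38+/+ when Cd38+/+ replicate 1, its lowest library, was left out (q = 0.0222). The overlapping Abhd1 thus differed by several fold where Preb did not pass the test, and the ratio of Abhd1 to Preb within a library was 0.0297 to 0.125 in Cd38+/+, 0.382 to 0.735 in Cd38+/- and 0.626 to 1.2 in Cd38-/- libraries. Of the 11 genes of the COPII coat tested, 1 was called in Cd38-/- against Cd38+/+ (Sar1b, the small GTPase of the coat, log2 fold change 0.42, q = 0.0434), beside 8.28% of all genes, and none in the other comparisons, with list medians of 0.42 there, 0.48 in Cd38+/- against Cd38+/+ and -0.04 between the mutants.

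As a description within libraries, the ratio of Slc35f6 to Preb was 0.591 to 0.876 in Cd38+/+, 0.664 to 0.982 in Cd38+/- and 0.303 to 0.532 in Cd38-/- libraries. The ratio to Atraid was 0.173 to 0.244, 0.208 to 0.223 and 0.0748 to 0.140. In both ratios every Cd38-/- library was below all others, as in the Slc35f6 level that led the choice.

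Cad encodes the multifunctional enzyme of the first steps of de novo pyrimidine synthesis. It was at 11.2, 9.39 and 5.51 TPM in Cd38+/+ and at 30.5, 19.1 and 26.3 TPM in Cd38+/- libraries. In Cd38-/- libraries it ranged from 12.0 to 31.5 TPM with a median of 21.0 TPM. All 9 mutant libraries were above all Cd38+/+ libraries, the smallest gap being that from 11.2 to 12.0 TPM, and the mutant genotypes overlapped. Cad rose in Cd38-/- against Cd38+/+ (log2 fold change 1.18, SE 0.34, q = 0.0418). That call was lost without Cd38-/- replicate 1 (q = 0.0941), 2 (q = 0.10), 5 (q = 0.0909) or 6 (q = 0.0806), and its q over all alternatives tried ran from 0.0196 to 0.397. The log2 fold change was 1.46 (SE 0.39, q = 0.176) in Cd38+/- against Cd38+/+ and -0.28 (SE 0.28, q = 0.537) between the mutant genotypes. Of 9 other genes of pyrimidine synthesis and salvage tested, 1 was called in Cd38-/- against Cd38+/+, beside 8.28% of all genes. It was Uckl1, a uridine kinase, which fell (log2 fold change -0.65, q = 0.0362), beside 1.86% of all genes called lower. None was called in the other comparisons. The medians of the 9 were -0.27 in Cd38+/- and -0.17 in Cd38-/- against Cd38+/+, and 0.09 between the mutants.

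Slc5a6, the sodium-dependent transporter of biotin and pantothenate, varied widely among the Cd38+/+ libraries, at 38.1, 3.95 and 15.1 TPM. It was at 41.9, 25.4 and 33.8 TPM in Cd38+/- and at 19.6 to 28.6 TPM with a median of 27.3 TPM in Cd38-/- libraries. The Cd38+/+ libraries thus held both the lowest value and one above every Cd38-/- library. The log2 fold change was 1.22 (SE 0.66, q = 0.274) for Cd38+/- and 0.87 (SE 0.48, q = 0.163) for Cd38-/- against Cd38+/+, and -0.35 (SE 0.17, q = 0.346) between the mutant genotypes. The middle value ran from 0.09 to 1.58 as single libraries were left out, and the gene was called without Cd38+/+ replicate 1 (q = 0.0159). Slc5a6 shares 396 exonic bases with Atraid on the opposite strand, and reads from them cannot be told apart.

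Atraid, a gene named for its induction by all-trans retinoic acid, was the most abundant of the 10 genes in every library group. It was at 494, 568 and 444 TPM in Cd38+/+, at 410, 530 and 485 TPM in Cd38+/- and at 343 to 468 TPM with a median of 450.2 TPM in Cd38-/- libraries, and the groups overlapped throughout. The log2 fold changes were -0.08 (SE 0.16, q = 0.525) for Cd38+/- and -0.25 (SE 0.14, q = 0.166) for Cd38-/- against Cd38+/+, and -0.17 (SE 0.13, q = 0.480) between the mutant genotypes. None of 11 vitamin transport and coenzyme genes tested beside Slc5a6 was called in any comparison.

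Mapre3 encodes EB3, a protein of growing microtubule ends, and Agbl5 an enzyme that trims glutamate from tubulin. Mapre3 was at 53.0, 86.2 and 88.0 TPM in Cd38+/+, at 73.5, 68.9 and 71.2 TPM in Cd38+/- and at 31.3 to 69.6 TPM with a median of 59.0 TPM in Cd38-/- libraries. Its log2 fold change was -0.43 (SE 0.26, q = 0.188) for Cd38-/- and -0.05 (SE 0.23, q = 0.589) for Cd38+/- against Cd38+/+, and -0.38 (SE 0.22, q = 0.390) between the mutant genotypes. The groups overlapped in all comparisons, though only just between the mutants, where the lowest Cd38+/- library was below 2 of 6 Cd38-/- libraries.

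Agbl5 was at 18.2, 0.91 and 25.5 TPM in Cd38+/+, at 27.1, 17.0 and 21.1 TPM in Cd38+/- and at 16.1 to 31.9 TPM with a median of 24.5 TPM in Cd38-/- libraries. Cd38+/+ replicate 2 was far below the other libraries, and those overlapped. The log2 fold change was 1.18 (SE 0.88, q = 0.352) for Cd38+/- and 1.32 (SE 0.65, q = 0.135) for Cd38-/- against Cd38+/+, and 0.14 (SE 0.22, q = 0.613) between the mutants. Without Cd38+/+ replicate 2 the first became -0.01 and the second 0.13, and without Cd38+/+ replicate 3 the gene was called in Cd38-/- against Cd38+/+ (q = 0.0263). Agbl5 shares 677 of its exonic bases (9.6%) with Ost4 on the opposite strand, and reads from them cannot be told apart. The means of Ost4 were 176 to 241 TPM in the 3 genotypes. Of 4 other tubulin deglutamylases tested, 1 rose in Cd38-/- against Cd38+/+, beside 6.42% of all genes. It was Agbl4 (log2 fold change 1.61, q = 0.0192), with a mean of only 4.61 TPM in Cd38+/+ libraries. Neither EB-family relative of Mapre3 was called.

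Cenpa and Dpysl5 were too low to test. Cenpa, the histone H3 variant of centromeres, was listed at 5.31, 0 and 0 TPM in Cd38+/+ libraries, at 2.55, 2.56 and 2.51 TPM in Cd38+/- libraries and at 1.69 to 8.72 TPM with a median of 2.5 TPM in Cd38-/- libraries. Dpysl5, a collapsin response mediator known from neurons, was listed at 1.25, 0 and 1.02 TPM, at 2.11, 1.2 and 2.27 TPM and at 0.54 to 2.26 TPM with a median of 1.83 TPM. The 5 markers of dividing cells summed to 0.57 to 40.8 TPM in Cd38+/+, 7.06 to 9.21 in Cd38+/- and 3.61 to 28.5 in Cd38-/- libraries, and the 8 neuron markers to 60.7 to 65.4, 32.4 to 59.8 and 39.0 to 120 TPM. Their part in the 2 genes' levels was not tested. No centromere gene of the 11 tested and no collapsin response mediator of the 4 tested was called in Cd38-/- against Cd38+/+.

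Levels can be set side by side between the genes because TPM are scaled by transcript length. In Cd38+/+ libraries Atraid (502 ± 62.4 TPM) and Preb (148 ± 31.0) were followed by Slc35f6 (102 ± 5.84) and Mapre3 (75.7 ± 19.7), then by Slc5a6 (19.1 ± 17.4), Agbl5 (14.8 ± 12.6), Abhd1 (11.0 ± 8.60) and Cad (8.69 ± 2.90), which did not differ from their neighbours beyond their SD (n = 3 each). In Cd38-/- libraries Abhd1 (103 ± 20.0 TPM) stood beside Preb (121 ± 7.49), within the SD of Abhd1 but not that of Preb (n = 6 each). Of the exonic bases of Abhd1, 89.6% also lie in exons of Preb, so the levels of this pair are uncertain to that extent. Slc35f6 (48.8 ± 11.5) stood beside Mapre3 (56.3 ± 14.9), within the SD of both (n = 6 each).

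Counts over the members were set beside those over all genes. Of the 8 genes that passed the filter, 0 were called in Cd38+/- against Cd38+/+, where 0% of all 11763 genes tested were called, while 1586 genes had an unadjusted p under 0.05. In Cd38-/- against Cd38+/+ the count was 3, Cad and the pair that led the choice, where 8.28% of 11722 genes were called, 6.42% higher and 1.86% lower. Between the mutant genotypes 0 of 8 were called, where 0.0346% of 11563 genes were called and 1299 had an unadjusted p under 0.05. Groups did not overlap for 2 of 8 genes in Cd38+/- against Cd38+/+ (22.5% of all genes), for 3 of 8 in Cd38-/- against Cd38+/+ (11.8%) and for 1 of 8 between the mutants (5.73%). Because Abhd1 and Slc35f6 had led the choice, nothing was read from these counts. Of the other 6 genes tested, Cad alone was called, in Cd38-/- against Cd38+/+. The median log2 fold change of the 8 genes was 0.59, 0.31 and -0.23 in the 3 comparisons, beside 0.18, 0.15 and -0.02 for all genes.

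**Figure D3:**
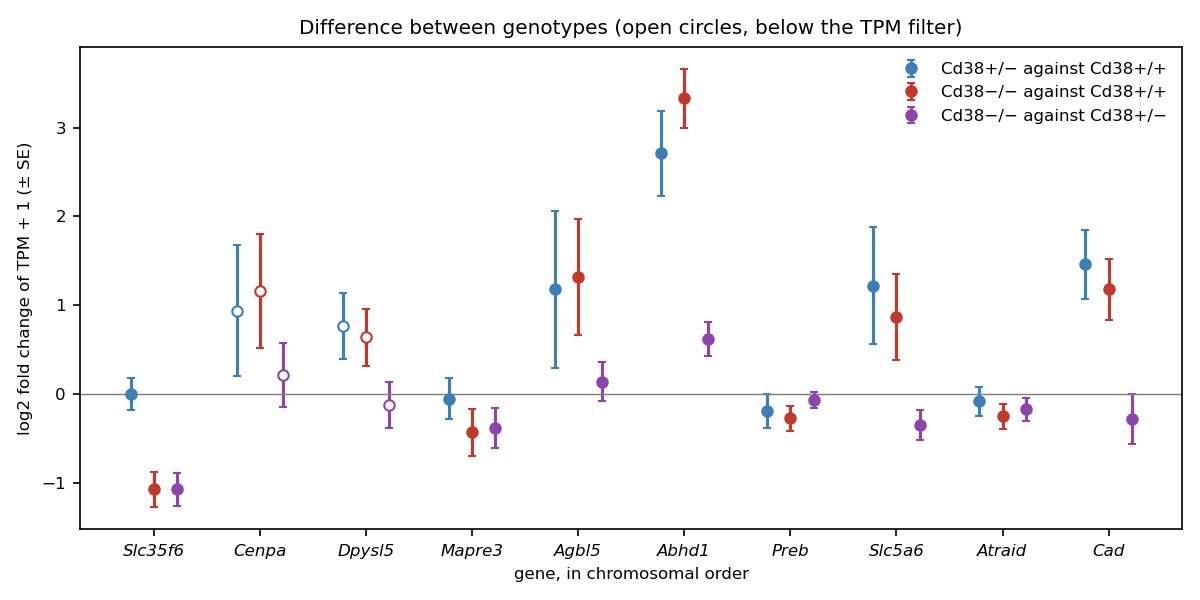
Log2 fold change of TPM + 1 with its SE (vertical axis) for the 10 genes in chromosomal order, for Cd38+/- against Cd38+/+ (blue), Cd38-/- against Cd38+/+ (red) and Cd38-/- against Cd38+/- (purple); open circles are genes below the TPM filter. Abhd1 reaches 2.71 and 3.33 against Cd38+/+, Slc35f6 is at -1.07 in both comparisons of Cd38-/- mice and at 0.00 in Cd38+/- mice, and the long bars of Agbl5 and Slc5a6 come with their spread among Cd38+/+ libraries.

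The genes around and between them were next counted, whether or not they had moved. Within 1 Mb of the interval the table holds 43 further genes, of which 31, 30 and 29 passed the filter in Cd38+/- against Cd38+/+, Cd38-/- against Cd38+/+ and Cd38-/- against Cd38+/-. Among them 0, 2 and 0 were called (0%, 6.67% and 0%), beside 0%, 8.28% and 0.0346% of all genes. Groups did not overlap for 7, 6 and 2 of them (22.6%, 20.0% and 6.90%), beside 22.5%, 11.8% and 5.73% of all genes. Their median absolute log2 fold change was 0.34, 0.23 and 0.17, beside 0.36, 0.31 and 0.15 for all genes tested. The largest absolute change among them was 1.58, 1.74 and 0.78.

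The 2 called neighbours were Drc1 and Cgref1. Drc1, a subunit of the dynein regulatory complex of motile cilia, lies before Slc35f6 and rose in Cd38-/- against Cd38+/+ (64.7 ± 41.8 TPM, n = 3, to 185 ± 47.6, n = 6; log2 fold change 1.74, SE 0.40, q = 0.0239), with 107 ± 29.2 TPM in Cd38+/- libraries (n = 3). The summed ependymal markers, which like Drc1 belong to ciliated cells, overlapped between Cd38-/- (3240 to 5080 TPM) and Cd38+/+ libraries (2520 to 4770 TPM) and were higher in every Cd38-/- than in every Cd38+/- library. Their part in Drc1 was not tested. Cgref1, the gene just before Abhd1, fell in Cd38-/- against Cd38+/+ (11.8 ± 1.54 to 3.75 ± 1.33 TPM; log2 fold change -1.47, SE 0.34, q = 0.0253) and was at 4.42 ± 0.463 TPM in Cd38+/- libraries (log2 fold change -1.24, SE 0.44, q = 0.202). Between the mutants, Dnajb6 (log2 fold change 0.20, SE 0.09, q = 0.302) and Fam166c (0.62, SE 0.14, q = 0.116) did not overlap and were not called. The genes Tmem214, Ost4 and Khk, which lie between Slc35f6 and Abhd1, had means of 63.7 to 72.3, 176 to 241 and 81.0 to 100 TPM in the 3 genotypes. Ost4 was lower without overlap in Cd38+/- than in Cd38+/+ libraries (log2 fold change -0.46, SE 0.15, q = 0.193). Emilin1, also between Slc35f6 and Abhd1, had means of 2.96, 5.66 and 4.36 TPM in Cd38+/+, Cd38+/- and Cd38-/- libraries. Its log2 fold change was 1.58 (SE 0.99, q = 0.312) in Cd38+/- against Cd38+/+.

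**Figure D4:**
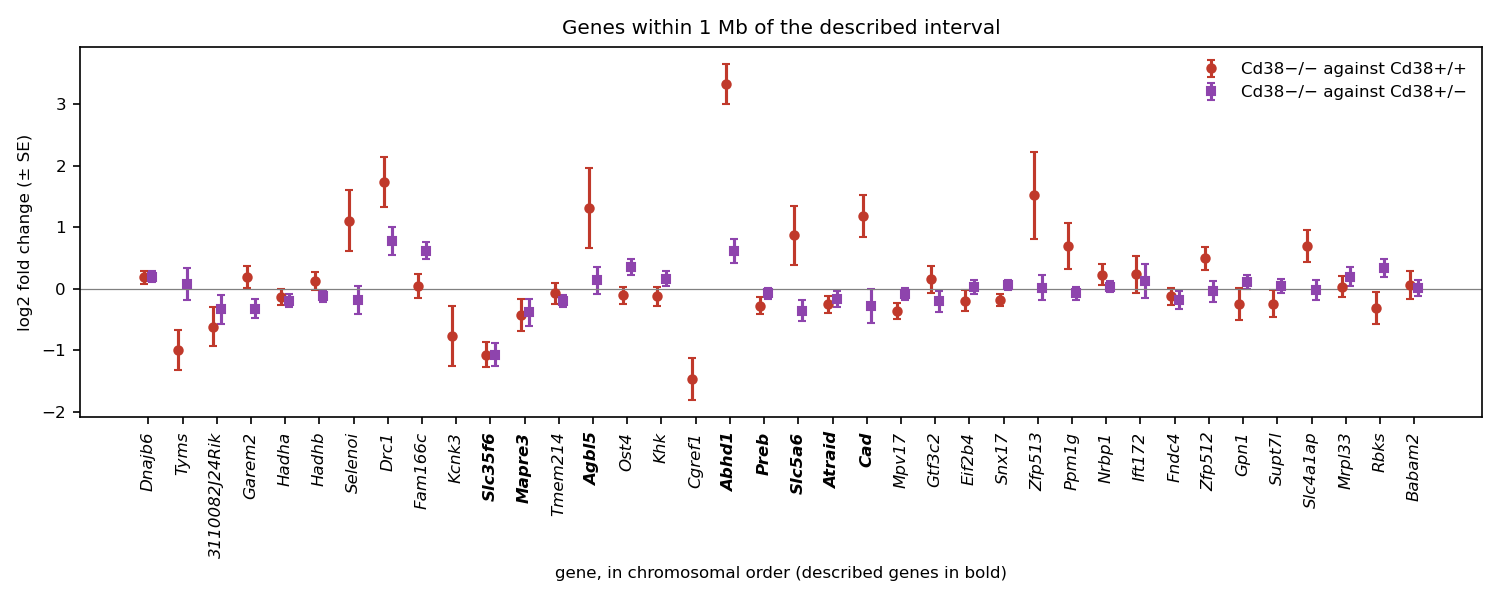
Log2 fold change with its SE (vertical axis) of the genes within 1 Mb of the interval that were tested in Cd38-/- against Cd38+/+, in chromosomal order, for Cd38-/- against Cd38+/+ (red circles) and against Cd38+/- (purple squares); described genes are in bold. Abhd1 (3.33) and Drc1 (1.74) are the highest against Cd38+/+ and Cgref1 (-1.47) the lowest, while against Cd38+/- only Slc35f6 (-1.07) passes a 2-fold change.

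Along the rest of the way to Cd38, from the end of Cad, 82, 83 and 81 genes were tested in the 3 comparisons. Of these 0, 4 and 0 were called (0%, 4.82% and 0%), beside 0%, 8.28% and 0.0346% of all genes. Groups did not overlap for 25.6%, 14.5% and 3.70% of them, beside 22.5%, 11.8% and 5.73% of all genes. Genes that both changed at least 2-fold and had no overlap numbered 4, 2 and 0 there, beside 691, 450 and 8 of all 11763, 11722 and 11563 genes tested. Between the mutants, the comparison without the Cd38+/+ libraries, 29 of all 11563 genes differed at least 2-fold and 8 of these had no overlap. Of the 8, 4 were on chromosome 5, which held 761 of the genes tested: Cd38 (log2 fold change -2.52, SE 0.25), Sod3, the extracellular superoxide dismutase (-1.10, SE 0.21), Slc35f6 (-1.07, SE 0.19) and Zp3, a zona pellucida glycoprotein gene (1.07, SE 0.20). Cd38 is the targeted gene and Slc35f6 was chosen on its differences between genotypes, so nothing was read from this count. Sod3 lies beyond Cd38, from chr5:52363791, and had means of 43.3, 35.3 and 16.3 TPM in Cd38+/+, Cd38+/- and Cd38-/- libraries. Zp3, from chr5:135980099, had 5.05, 1.89 and 5.10 TPM. The other genes of the 8 were Xlr3b, Cacng8, Plac9a and Plac9b.

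**Figure D5:**
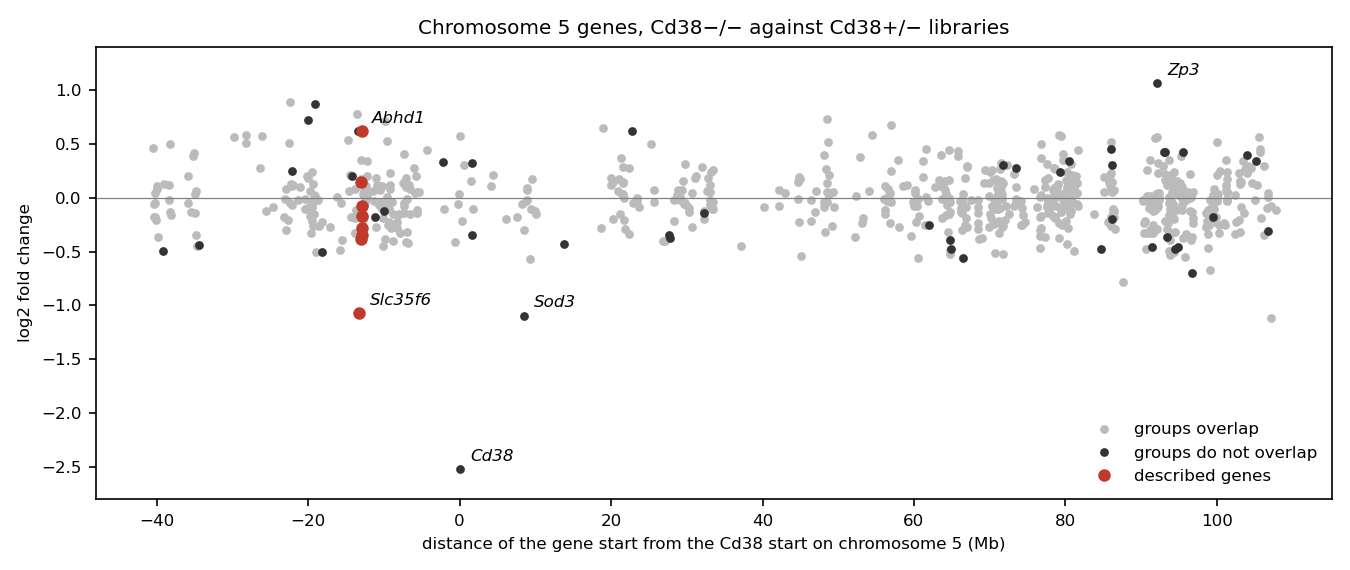
Log2 fold change of Cd38-/- against Cd38+/- (vertical axis) of all tested chromosome 5 genes by distance of their start from the Cd38 start in Mb (horizontal axis, negative before Cd38); grey points are genes whose groups overlap, black points genes whose groups do not, and red points the described genes. Slc35f6 (-1.07) lies 13.22 Mb before Cd38 among genes with small differences, Cd38 is at -2.52, and Sod3 (-1.10) and Zp3 (1.07) are the other chromosome 5 genes with at least a 2-fold change and no overlap.

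Relatives of the leading pair were measured to set their values in a family. Of the 18 other ABHD-family hydrolase genes tested, 0 were called in Cd38+/- against Cd38+/+ and 0 between the mutants. In Cd38-/- against Cd38+/+ 2 rose, Abhd2 (log2 fold change 1.51, q = 0.0451) and Abhd13 (0.93, q = 0.0346), beside 6.42% of all genes. Abhd2 had means of 1.79, 6.97 and 6.18 TPM in Cd38+/+, Cd38+/- and Cd38-/- libraries, so it passed the filter only through the mutants. The list medians were 0.37 in Cd38+/- and 0.20 in Cd38-/- against Cd38+/+, and -0.07 between the mutants. Of the SLC35F relatives of Slc35f6, Slc35f5 was at 42.7, 49.9 and 47.8 TPM in the 3 genotypes, with a log2 fold change of 0.16 (q = 0.312) in Cd38-/- against Cd38+/+ and -0.06 (q = 0.622) against Cd38+/-. Slc35f2 had a log2 fold change of 1.82 (q = 0.0557) in Cd38-/- against Cd38+/+ and was not called. Its means were 1.88, 3.32 and 5.75 TPM, so it passed the filter only through the Cd38-/- libraries.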

How the data were processed

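Bead-isolated midbrain astrocytes of 12 mouse samples were sequenced after SMART-Seq v4 cDNA synthesis, which does not mark strand. The design text gives depletion of ribosomal RNA, while a label gives polyA RNA. The authors deposited one table of TPM per gene and library. The submitters' processing notes name Trim Galore 0.6.4, STAR 2.7.1a, RSEM 1.2.28 and DESeq2 1.36.0, with mm10 as the build. TPM hold no read counts, so the depth of each library is unknown and no counting interval is given. RSEM shares reads between overlapping genes by estimate.

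From the TPM, log2(TPM + 1) was fitted with limma 3.58.1 (trended eBayes, R 4.3.3) over the libraries of the 2 genotypes compared, for genes whose TPM averaged over 5 in either. A call needed a Storey q under 0.05 and a 1.2-fold change. The scripts were tested on simulated data. Members below the filter took their value from the unfiltered data, without a test. Groups came from the labels, no 2 libraries were identical, and no column was left out.

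The members and lists were chosen with earlier results of these data known. Named were all members, window genes called or without overlap between the mutant genotypes, the 5 genes most and least alike to Abhd1 and to Slc35f6, Cd38, and listed relatives and partners. One gene that this rule names is not reported here. Genes between Slc35f6 and Abhd1, Sod3, Zp3 and the other genes with 2-fold differences between the mutants, and the motifs, were picked after their values were seen. Alternatives were pseudocounts of 0.1 and 5, no filter, Benjamini-Hochberg adjustment, untrended eBayes, library weights, median-ratio and quantile scaling, 1 fit of all 12 libraries, a replicate block and leaving out each library. Positions and transcripts were from GENCODE vM21 on GRCm38. The annotation release behind the deposited table is not given in the sources used here.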

Additional observations from a re-analysis of the deposited data

Results flagged for a closer look

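Cenpa in Cd38-/- libraries had 1 library far from the others: replicate 2 was at 8.72 TPM and the next highest at 3.68 TPM. The gap was 0.717 of the group's range, above the critical value of Dixon's test for 6 samples. The 10 genes were looked at in this way in the Cd38-/- group, and chance flags about 1 in 20 such groups.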

How the results depend on the processing

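Over all alternatives the log2 fold change of Abhd1 was 2.27 to 3.25 in Cd38+/- and 2.86 to 3.88 in Cd38-/- against Cd38+/+ and 0.43 to 0.83 between the mutants, and that of Slc35f6 was -0.14 to 0.11, -1.30 to -0.97 and -1.30 to -0.96. In Cd38+/- against Cd38+/+, 0 members were called (0 of all genes), but 1 without a filter (663), 1 with library weights (30), 2 in 1 fit of all 12 libraries (1464; Cad is 1 of them), and 0 to 1 when single libraries were left out (0 to 10; 1 only without Cd38+/+ replicate 3). In Cd38-/- against Cd38+/+, 3 members were called (970 of all genes), but 1 with weights (1) and 1 with the replicate block (2), 2 with Benjamini-Hochberg adjustment (326) and with quantile scaling (965), Cad being lost in these 4, 3 without a filter (2283) and in 1 fit of all 12 libraries (1822), and 2 to 5 with single libraries left out (74 to 3119). Between the mutants 0 members were called (4 of all genes), but 5 with weights (3120; Mapre3, Slc5a6 and Cad among them), and 0 to 1 with single libraries left out (0 to 93; 1 only without Cd38-/- replicate 4). These counts include Abhd1 and Slc35f6, which were chosen on these values, so nothing is read from them for that pair. The weights did not fully converge in 2 of 3 comparisons. The causes of these changes were not tested. With single libraries left out, the sign of uncalled log2 fold changes turned: Mapre3 (-0.29 to 0.07) and Atraid (-0.17 to 0.02) in Cd38+/- against Cd38+/+, Agbl5 (-0.01 to 0.31) between the mutants, and Agbl5 in Cd38+/- against Cd38+/+ (-0.01 to 1.89), whose 1.18 was lost without Cd38+/+ replicate 2. Same-numbered libraries of 2 genotypes had correlated deviations of -0.31 to 0.45, and 7 of 18 matched their own number best. So few matches cannot tell whether same-numbered samples shared a preparation or litter, and the labels give only a number. Cd38-/- replicates 4 to 6 have no same-numbered library in the other genotypes. Under the replicate block they therefore do not bear on the change between genotypes. The replicate block gave 0 (4 of all genes), 1 (2) and 0 (2) calls among members in the 3 comparisons. Neither scaling turned the direction of Cad; the directions of genes outside the 10 were not compared.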
